A study of Mus musculus with 2 samples.

Results

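The neurexins, neuroligins and LRRTMs, well-known adhesion proteins across the synaptic cleft, were described here by 9 genes chosen by symbol: Nrxn2 and Nrxn3, Nlgn1, Nlgn2 and Nlgn3, and Lrrtm1, Lrrtm2, Lrrtm3 and Lrrtm4. All 9 were matched among 55450 annotated genes. Male B6CASTF1/J mice, a first-generation hybrid of the C57BL/6 and CAST strains, gave left cerebral cortex at 14 days of age, and total RNA from it was sequenced in 2 libraries. Each started from 300 ng of RNA and held ERCC spike-ins as standards. They are called biological replicates 1 and 2 and have a biosample each, yet both point to the same donor entry and to 3 males. The labels thus leave unsaid whether the animals were separate or pooled, so the spread between the replicates cannot be taken as a spread between animals. Both form 1 group, with no second genotype, treatment or age, so values are described and no test is given. The libraries held 28248923 and 30848577 expected counts, which are reads assigned to annotated genes by estimation. Over 17776 genes, their chi-square per degree of freedom was 11.97, so they differed by more than counting noise and were not 1 library given in duplicate.

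Neurexins sit in the presynaptic membrane. Each neurexin gene makes a long alpha form from an upstream promoter and a short beta form from a promoter inside the gene, and both forms share the end of the protein and a splice segment in their last extracellular laminin-like domain, called splice site 4. Neuroligins and LRRTMs (leucine-rich repeat transmembrane proteins) are postsynaptic ligands of neurexins. Neuroligin 1 is known from excitatory synapses, neuroligin 2 from inhibitory synapses, neuroligin 3 from both, and LRRTMs from excitatory synapses. Whether splice site 4 holds its insert is known to change partner choice: LRRTMs bind neurexins without it, and cerebellins bind neurexins with it.

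The sequences shown first are the coding segments that distinguish the splice forms quantified below, read from GENCODE M21 transcripts on mm10. The splice site 4 exon of Nrxn3 has 90 bases at chr12:90199147-90199236 on the plus strand and is shown without capitals.
Nrxn3 splice site 4 exon: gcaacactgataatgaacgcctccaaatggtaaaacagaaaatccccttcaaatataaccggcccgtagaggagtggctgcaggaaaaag
The site A exons of the neuroligins lie in the extracellular, esterase-like part. Nlgn1 has 1 of 60 bases at chr3:25920178-25920237 on the minus strand, and Nlgn3 has a pair of 60 bases each, at chrX:101303072-101303131 and chrX:101307075-101307134 on the plus strand. Capitals in the Nlgn1 exon and in the second Nlgn3 exon mark bases that differ between these 2, and capitals in the first Nlgn3 exon mark bases that differ from Nlgn1.
Nlgn1 site A exon: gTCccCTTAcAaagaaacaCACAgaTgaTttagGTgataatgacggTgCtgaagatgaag
Nlgn3 site A, second exon: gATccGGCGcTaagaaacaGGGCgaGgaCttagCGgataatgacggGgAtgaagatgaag
Nlgn3 site A, first exon: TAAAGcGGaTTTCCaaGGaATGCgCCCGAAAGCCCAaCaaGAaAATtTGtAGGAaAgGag
The Nlgn1 exon shared 43 of 60 positions (71.7%) with the second Nlgn3 exon and 16 of 60 (26.7%) with the first. Nlgn2 has a site A exon of 51 bases at chr11:69830563-69830613 on the minus strand, shown without capitals. Site B of Nlgn1, the insert known to restrict binding to beta neurexins, has 27 bases, shown in capitals within the stretch chr3:25439865-25439903 on the minus strand.
Nlgn2 site A exon: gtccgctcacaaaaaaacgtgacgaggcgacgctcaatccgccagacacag
Nlgn1 site B insert: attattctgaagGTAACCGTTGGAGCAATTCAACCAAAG

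The second set of sequences is the end of each reading frame, since neurexins, neuroligins and LRRTMs are known to bind intracellular PDZ-domain scaffold proteins through their last residues. Each line gives the last 30 coding bases before the stop codon, with the last 12 in capitals. They lie at chr19:6532116-6532145 (Nrxn2, plus), chr12:90332378-90332407 (Nrxn3, plus), chr3:25433641-25433670 (Nlgn1, minus), chr11:69825206-69825235 (Nlgn2, minus) and chrX:101320230-101320259 (Nlgn3, plus) of mm10.
Nrxn2-202 end: aagaagaacaaagacaaaGAGTATTACGTC
Nrxn3-205 end: cagaaaaacaaggacaagGAGTATTATGTG
Nlgn1-203 end: cacccccattcacattcaACAACCAGGGTA
Nlgn2-202 end: ctaccccatccccactccACCACTCGGGTA
Nlgn3-201 end: ctgccccactcacactccACTACCCGTGTA
The LRRTM ends lie at chr6:77245098-77245127 (Lrrtm1, plus), chr10:63930061-63930090 (Lrrtm3, minus), and chr6:80809157-80809186 and chr6:80023134-80023163 (Lrrtm4 long and short ends, plus). The Lrrtm4 reading frame has alternative ends, so both ends are shown.
Lrrtm1-202 end: caccagcagcctgcgaggGAATGCGAGGTG
Lrrtm3-201 end: cgcatcagtgaccataaaCCACAGCTGGCC
Lrrtm4-208 long end: cctgccatttatctggagAGAATAACAAAC
Lrrtm4-206 short end: accatctctggctccaggGAGTGTGAGGTA
Over these 12 bases the neurexins shared 10, each pair of neuroligins shared 9, and Lrrtm1 shared 9 with the short Lrrtm4 end. Matches were not confined to families. Nrxn2 and Nrxn3 each shared 8 with the short Lrrtm4 end, and 6 and 7 with Lrrtm1. Lrrtm3 shared only 3 with Lrrtm1 and 2 with either Lrrtm4 end. The long and short Lrrtm4 ends shared 0 of 12.

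The 9 genes spanned a wide range of levels, and in the gene table all lay above the median of the protein-coding genes detected in both libraries. Levels are given in TPM, a gene's length-corrected share of all entries of a library scaled to a fixed total, so levels of different genes can be set side by side. The median of the 12921 nuclear protein-coding genes at TPM 1 or more in both libraries was 16.0 TPM. In the gene table, in replicates 1 and 2, Nrxn2 had 340 and 319 TPM, the highest of the 9 and rank 139 of 21938 protein-coding genes. Nlgn2 had 125 and 128 TPM, Nlgn3 had 101 and 100 TPM, and Nrxn3 had 98.2 and 95.1 TPM. Nlgn3 and Nrxn3 were nearly level. Nlgn1 came next with 46.3 and 47.7 TPM. The LRRTMs were the lowest in this table: Lrrtm1 had 38.9 and 41.8 TPM, Lrrtm3 had 33.6 and 34.9 TPM, Lrrtm4 had 28.95 and 34.98 TPM, and Lrrtm2 had 22.9 and 23.5 TPM. Lrrtm2, the lowest in this table, still ranked 4942 of 21938, within the top 22.5%. Expected counts of the members ran from 1571 for Lrrtm4 in replicate 1 to 21894 for Nrxn2 in replicate 2, so counting error was small for all 9. In the gene table, each gene in this order exceeded the next in both libraries, by a mean log2 ratio larger than its SD, except Lrrtm3 over Lrrtm4, whose log2 ratio was 0.21 in replicate 1 and just under 0 in replicate 2. Nlgn3 over Nrxn3 was the narrowest of the separated steps, with log2 ratios of 0.04 and 0.07. The order changed with the values used. In the second transcript table Lrrtm3 averaged 82.2 TPM, above Nlgn1 at 71.4 TPM, and Nlgn3 averaged 207 TPM, above Nlgn2 at 187 TPM. By complete coding transcripts Lrrtm3 was the lowest, at 12.9 TPM, below Lrrtm2 at 21.2 TPM, and Nrxn3 at 56.5 TPM was above Nlgn3 at 54.7 TPM. In whole tissue, fewer cells of a type and less RNA per cell cannot be told apart.

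**Figure D1:**
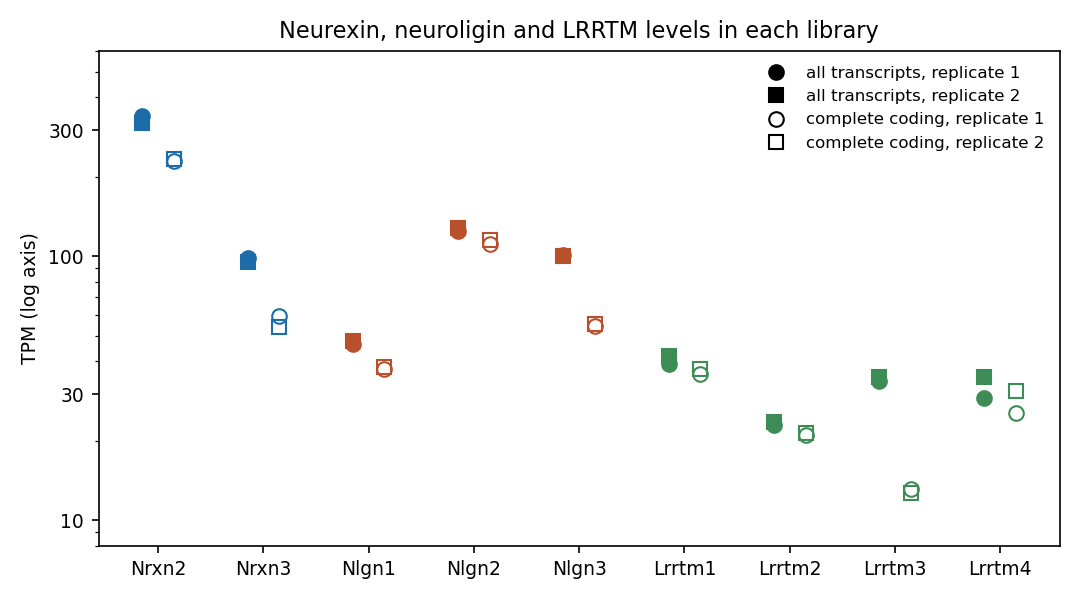
TPM (log axis) of the 9 genes in each library, circles for replicate 1 and squares for replicate 2, with filled symbols for all transcripts of a gene and open symbols for its complete coding transcripts. Nrxn2 lies highest at 340 and 319 TPM, and Lrrtm3 drops most when only complete coding transcripts are counted, to 13.1 and 12.7 TPM.

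By family, Nrxn2 and Nrxn3 together held 438 and 414 TPM in replicates 1 and 2, the 3 neuroligins 272 and 276 TPM, and the 4 LRRTMs 124 and 135 TPM. Summed over its genes, the neurexin group was thus the highest, and the order of the 3 groups was the same in both libraries. This rested on Nrxn2, since Nrxn3 averaged 96.6 TPM in the gene table, below Nlgn2 at 126 TPM and Nlgn3 at 100 TPM. Counting only transcripts annotated with a complete reading frame lowered the means to 288 ± 1.11, 206 ± 3.96 and 98.7 ± 4.72 TPM (SD, n = 2 libraries), in the same order. A gene's TPM also counts retained-intron and other transcripts that hold no complete reading frame, whose weight differed between the members as given below.

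Nrxn2 was well above Nrxn3; other neurexin genes were not analysed here. Nrxn2 spans chr19:6418731-6544169 on the plus strand and Nrxn3, one of the longest mouse genes, spans chr12:88722876-90334935 on the plus strand. Nrxn2 averaged 330 ± 15.2 TPM and Nrxn3 96.6 ± 2.20 TPM (SD, n = 2 libraries), a log2 ratio of 1.77 ± 0.03, or 3.41-fold. Nrxn2 made up 77.6% and 77.0% of the TPM of both genes in replicates 1 and 2. With complete coding transcripts only, Nrxn2 made up 79.5% and 81.2%. The direction held in both libraries and in both transcript tables.

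The highest annotated transcript differed in form between the 2 neurexins. The highest Nrxn2 transcript was a beta form, Nrxn2-202 (3503 bases, with the splice site 4 exon), at 124 and 134 TPM in replicates 1 and 2, or 36.5% and 41.9% of the gene. The highest Nrxn3 transcript was an alpha form, Nrxn3-205 (7922 bases, with the splice site 4 exon), at 37.1 and 36.9 TPM, or 37.8% and 38.8% of the gene. Both transcripts led in both libraries. The next coding forms were the alpha transcript Nrxn2-204, which lacks the splice site 4 exon, at 57.7 and 55.3 TPM, and the beta transcript Nrxn3-203, which also lacks it, at 15.0 and 12.6 TPM. A short processed transcript without a reading frame, Nrxn2-213 (576 bases), stood beside them in Nrxn2, at 64.0 and 39.9 TPM. In the second transcript table Nrxn2-202 led Nrxn2-213 only narrowly in replicate 1, at 152 against 150 TPM. A retained-intron transcript, Nrxn3-204, had 13.1 and 15.7 TPM. The leading form also depends on the annotation. Coding transcripts of at least 4500 bases number 6 in Nrxn2 and 2 in Nrxn3. From the gene start, Nrxn2-202 runs to 114.486 kb and Nrxn2-204 only to 113.547 kb. Nrxn3-205 runs to 1612.059 kb and Nrxn3-203 only to 1610.023 kb. The part of these ends in the levels was not tested.

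Alpha and beta forms were divided by length, with protein-coding transcripts of at least 4500 bases counted as alpha, because an alpha reading frame needs about that length. The alpha share of Nrxn2 was 41.7% and 40.4% in replicates 1 and 2, and that of Nrxn3 was 64.1% and 70.2%. Nrxn3 had the higher share in both libraries. The alpha TPM itself was close between the libraries, at 105 and 99.1 TPM for Nrxn2 and 37.9 and 37.8 TPM for Nrxn3. The rest of the coding TPM was 147 and 146 for Nrxn2 and 21.2 and 16.1 for Nrxn3. The Nrxn2 share depended on how transcripts were classed. Read by annotated start, with only Nrxn2-202 and Nrxn2-203 starting at the beta promoter, it was 48.0%, since the 648-base fragment Nrxn2-209 then counted as alpha, and with complete coding transcripts in the second transcript table it was 50.4%. Nrxn3 read by start was 70.4% alpha, since Nrxn3-210 (3303 bases) then counted as alpha. The 4500-base limit leaves it out but keeps Nrxn3-201 (4634 bases), although both have 3300 coding bases. Nrxn3 stayed above Nrxn2 under each of these classings. With all biotypes counted the shares were 54.2% against 31.0%, and with a limit of 6000 bases 65.6% against 18.3%. These settings add little, since both misplace transcripts. The 6000-base limit takes the alpha form Nrxn2-204 (5505 bases) out of the alpha class. Counting all biotypes puts the nonsense-mediated decay transcripts Nrxn3-208 and Nrxn3-213 in the alpha class and the short Nrxn2-213 outside it.

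**Figure D2:**
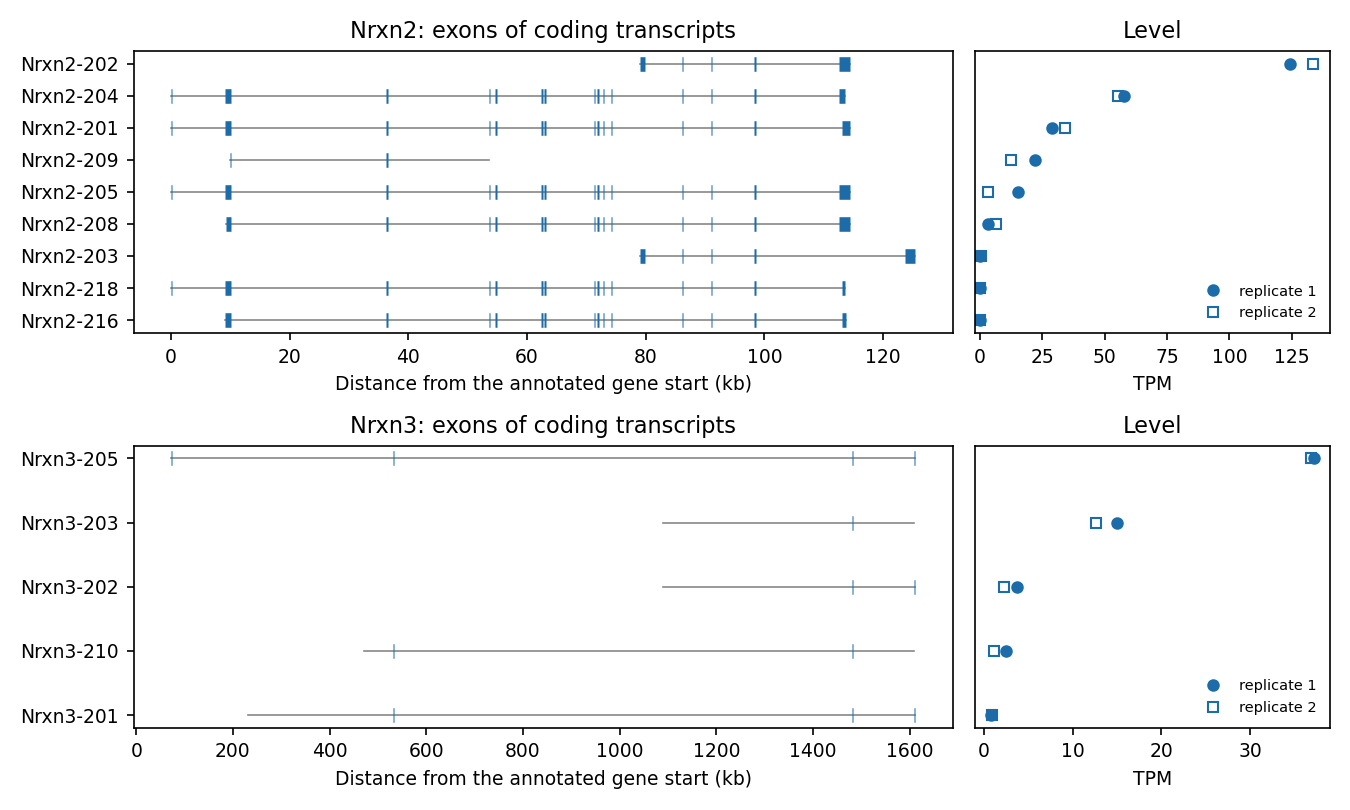
Exons of the protein-coding transcripts of Nrxn2 and Nrxn3 by distance in kb from the annotated gene start (left, boxes are exons and lines introns), beside the TPM of each transcript in replicate 1 (circles) and replicate 2 (squares). The beta transcript Nrxn2-202, which starts inside the gene, leads Nrxn2 at 124 and 134 TPM, and the alpha transcript Nrxn3-205 leads Nrxn3 at 37.1 and 36.9 TPM.

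The start of the leading Nrxn3 beta transcripts, Nrxn3-203 and Nrxn3-202, coincides with a RefSeq start site (GRCm38.p6, plus strand), and the 250 bases before it, chr12:89812233-89812482, are shown because the beta class rests on this start. Capitals mark the dinucleotide CG, which reads the same on both strands.
Nrxn3 beta promoter: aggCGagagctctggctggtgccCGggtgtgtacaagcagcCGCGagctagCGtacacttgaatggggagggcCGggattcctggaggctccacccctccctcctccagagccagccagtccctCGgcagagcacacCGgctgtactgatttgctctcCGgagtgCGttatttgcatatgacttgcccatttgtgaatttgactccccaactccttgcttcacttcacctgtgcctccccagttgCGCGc
This stretch held 12 CG and 60.0% G and C. The median of 32851 RefSeq stretches of this length was 6 CG and 52.4% G and C, and 66.5% of them held fewer CG. No alpha stretch is shown, because the annotated start of Nrxn3-205 is also where a later exon of 5 other Nrxn3 transcripts begins, which start further upstream.

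Most complete coding TPM of Nrxn2 and Nrxn3 was assigned to annotated transcripts with the splice site 4 exon. In Nrxn2, transcripts with the exon held 74.8% and 76.1% of the complete coding TPM in replicates 1 and 2, and in Nrxn3 they held 74.6% and 76.6%. The means, 75.4 ± 0.972% and 75.6 ± 1.41% (SD, n = 2 libraries), differed by less than their SDs. In the second transcript table the Nrxn2 share was 74.6% and the Nrxn3 share 84.5%. These shares are bounded by the annotation. Among complete coding transcripts it has 1 beta form of Nrxn2 without the exon, Nrxn2-203, and no alpha form of Nrxn3 without it, so reads of such an Nrxn3 form could be placed only on Nrxn3-203 or on transcripts of other classes. Nrxn2-203 ends in an exon 123.61 to 125.438 kb from the gene start that no other coding Nrxn2 form has, and it held 0.17 and 0.37 TPM. A beta form of Nrxn2 without the splice site 4 exon but with the usual last exon could thus not be counted. The main form without the splice site 4 exon was alpha in Nrxn2 (Nrxn2-204) and beta in Nrxn3 (Nrxn3-203). This contrast is set by which forms are annotated, so no difference between the genes is drawn from it.

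Of the neuroligins, Nlgn2 and Nlgn3 were both above Nlgn1 per transcript. Nlgn2 (chr11:69823122-69837784, minus strand) averaged 126 ± 2.15 TPM, Nlgn3 (chrX:101299168-101325963, plus strand) 100 ± 0.594 TPM, and Nlgn1 (chr3:25426215-26332460, minus strand) 47.0 ± 0.990 TPM (SD, n = 2 libraries). Nlgn2 exceeded Nlgn1 by a log2 ratio of 1.42 ± 0.01 and Nlgn3 exceeded Nlgn1 by 1.09 ± 0.04. Both directions held under every alternative tried. Nlgn2, the inhibitory-synapse member, made up 45.9% and 46.4% of neuroligin TPM in replicates 1 and 2, Nlgn3 37.1% and 36.3%, and Nlgn1, the excitatory-synapse member, 17.0% and 17.3%.

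The order of Nlgn2 and Nlgn3 was less firm. Nlgn2 over Nlgn3 had a log2 ratio of 0.33 ± 0.03 in the gene table, -0.15 in the second transcript table and 1.05 with complete coding transcripts only. The transcripts behind this were Nlgn3-201, the full-length form, at 48.3 and 49.4 TPM, and Nlgn3-203, a fragment whose reading frame is annotated as incomplete at its end, at 43.1 and 43.3 TPM. The 2 had similar levels in both libraries. In the second table, short processed transcripts took 43.6% of Nlgn3, against 2.57% in the first. Complete coding transcripts of Nlgn3 held 54.7 ± 0.643 TPM, against 113 ± 2.76 TPM for those of Nlgn2. Nlgn3-206, which has both site A exons, had 5.91 and 5.32 TPM. The overlapping gene Gm21986, on the same strand, shares 3823 exon bases with Nlgn3 and was listed at 0.78 and 0.76 TPM.

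Nlgn2 RNA was concentrated in 1 form, more so in the first table than in the second. Nlgn2-202 held 95.9 and 101 TPM in replicates 1 and 2, or 76.8% and 78.9% of the gene, followed by Nlgn2-201 with 15.7 and 14.6 TPM and the incomplete Nlgn2-203 with 7.77 and 8.19 TPM. In the second table Nlgn2-202 held 61.4% and 64.5% of the gene and Nlgn2-201 25.6% and 24.9%. Nlgn2-202 and Nlgn2-201 have the same number of coding bases, 2508. The site A exon was in 93.4% of Nlgn2 coding TPM. Only the incomplete Nlgn2-203 is annotated without it, so a full-length form without the exon could not be counted. Nlgn1 was spread more evenly. Nlgn1-203 had 16.9 and 16.7 TPM, Nlgn1-201 had 11.31 and 12.01 TPM, and the retained-intron transcript Nlgn1-204 had 9.08 and 9.68 TPM. Nlgn1-201 and Nlgn1-205 carry both the site A exon and the site B insert, and the other coding forms, Nlgn1-203 and Nlgn1-202, carry neither.

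Coding Nlgn1 RNA was divided almost evenly between these classes. Forms with both inserts held 47.3% and 50.6% of its coding TPM in replicates 1 and 2, a mean of 49.0 ± 2.39% (SD, n = 2 libraries), and 49.6% in the second table. The libraries fell on either side of an even split. No annotated form carries 1 insert without the other, so combinations of site A and site B could not be resolved. In Nlgn3, the second site A exon was in 55.9 ± 0.177% of coding TPM and the first in 5.74 ± 0.476%. Only the incomplete Nlgn3-203 lacks the second exon, so this share follows from how much was assigned to that fragment.

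The LRRTMs lay close to each other. LRRTM1 and LRRTM2 are known to hold AMPA-type glutamate receptors at synapses, and LRRTM4 to bind glypicans as well as neurexins. Lrrtm1 (chr6:77242689-77257791, plus strand) averaged 40.3 ± 2.04 TPM, Lrrtm3 (chr10:63928472-64090277, minus strand) 34.2 ± 0.962 TPM, Lrrtm4 (chr6:80018877-80810143, plus strand) 32.0 ± 4.26 TPM, and Lrrtm2, on chromosome 18, 23.2 ± 0.438 TPM (SD, n = 2 libraries). Lrrtm1 exceeded Lrrtm2 by a log2 ratio of 0.79 ± 0.05, Lrrtm3 exceeded Lrrtm2 by 0.56 ± 0.01, and Lrrtm4 exceeded Lrrtm2 by 0.45 ± 0.17. Without the correction for length all 3 turned round, to -0.15, -0.42 and -0.30, since Lrrtm2 RNA is long and its expected counts of 2056 and 2309 were the highest of the 4 genes. Lrrtm1 over Lrrtm4 was 0.34 ± 0.12 and kept its sign under every alternative.

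Lrrtm3 stood apart by the class of its transcripts. Its highest transcript was a retained-intron form, Lrrtm3-204, at 14.1 and 12.3 TPM in replicates 1 and 2, followed by its single coding form, Lrrtm3-201, at 13.1 and 12.7 TPM, and a processed transcript, Lrrtm3-202, at 6.37 and 6.32 TPM. Lrrtm3-204 was the higher in replicate 1 and Lrrtm3-201 in replicate 2. The coding share of Lrrtm3 was 37.7% in the first table and 22.5% in the second, against 87.8% to 91.1% for the other 3 LRRTMs in the first table. By complete coding TPM, Lrrtm3 was below Lrrtm2, with a log2 ratio of -0.71 in place of 0.56, and below Lrrtm4, with -1.11. The second table placed Lrrtm3 above Lrrtm1 as a whole gene, with Lrrtm1 over Lrrtm3 at -0.49 against 0.24 ± 0.03 in the gene table.

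The other LRRTMs were led by complete coding forms. Lrrtm1-202 had 28.6 and 26.3 TPM in replicates 1 and 2, followed by Lrrtm1-203 at 7.24 and 11.0 TPM and the nonsense-mediated decay transcript Lrrtm1-201 at 3.05 and 4.46 TPM. Lrrtm2-201 had 17.2 and 18.3 TPM, followed by Lrrtm2-203 at 3.77 and 2.98 TPM and the retained-intron Lrrtm2-202 at 1.92 and 2.21 TPM. The leading form was the same in both libraries for each gene. Lrrtm4-208, with the long coding end, had 13.1 and 14.6 TPM, followed by Lrrtm4-206, with the short end, at 5.34 and 5.74 TPM, and Lrrtm4-205 at 3.41 and 4.97 TPM. Forms with the long end held 64.8% and 63.8% of complete coding Lrrtm4 TPM, a mean of 64.3 ± 0.724% (SD, n = 2 libraries), and 62.0% in the second table. The long end, whose last 12 coding bases share 0 with the short end shown above, was thus the more abundant in both libraries.

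Across all 9 genes, the share of TPM in complete coding transcripts was lowest for Lrrtm3 in both libraries. The highest was Lrrtm1 in replicate 1 (92.2%, against 91.6% for Lrrtm2) and Lrrtm2 in replicate 2 (90.6%, against 89.3% for Lrrtm1). Averaged over the libraries, the share was 37.7% for Lrrtm3, 54.4% for Nlgn3, 58.5% for Nrxn3, 70.3% for Nrxn2, 80.1% for Nlgn1, 87.8% for Lrrtm4, 89.8% for Nlgn2, 90.7% for Lrrtm1 and 91.1% for Lrrtm2. In Nrxn3 the remainder was retained-intron RNA (17.1%), nonsense-mediated decay transcripts (15.0%) and processed transcripts (9.34%), and in Nlgn1 it was the retained-intron transcript alone (19.9%). The second table gave lower mean coding shares for all 9 genes, by the most for Nrxn2 (52.5%) and Nlgn3 (37.4%). For Lrrtm2 the mean barely moved, to 91.0%, and in replicate 1 the Lrrtm4 share was higher there, at 88.5% against 87.8%. Total RNA holds unspliced RNA, which can be assigned to retained-intron entries; how much did so was not tested. By mean share over the libraries, the tables named the same leading transcript for 8 of 9 genes, and for Lrrtm3 they did not. In the second table the processed transcript Nlgn3-205 held 33.0% and 28.3% of Nlgn3 in replicates 1 and 2, against 32.6% and 33.9% for Nlgn3-201. Nlgn3-205 thus led there in replicate 1.

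**Figure D3:**
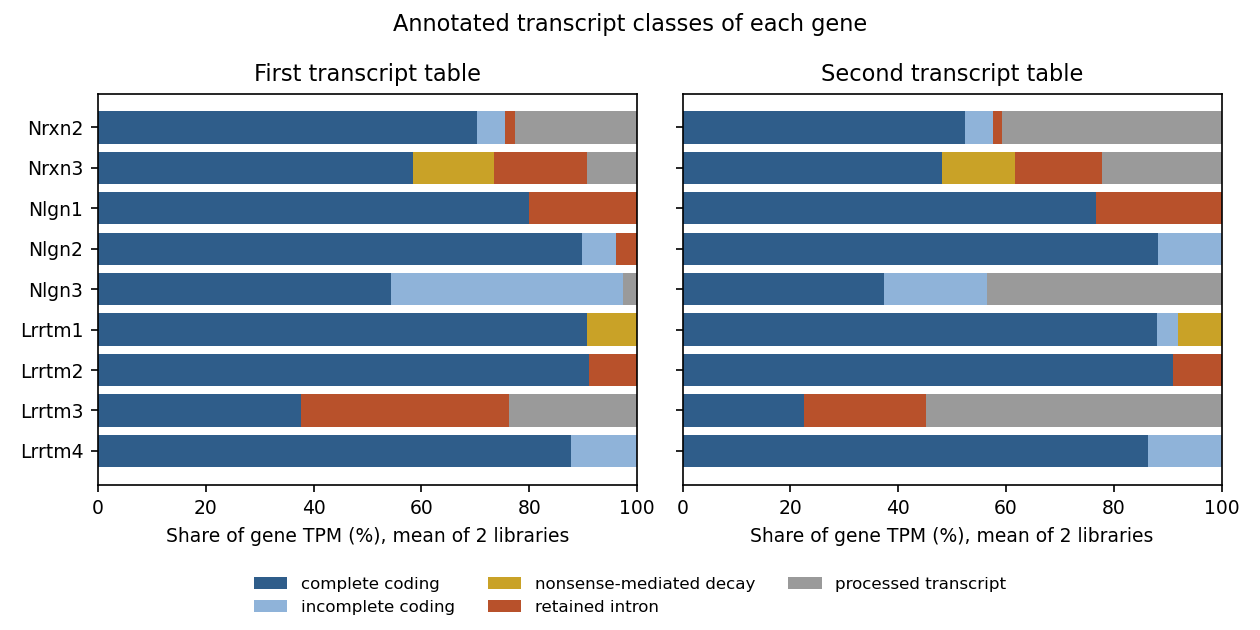
Share of each gene's TPM (%, mean of 2 libraries) in complete coding, incomplete coding, nonsense-mediated decay, retained-intron and processed transcripts, from the first transcript table (left) and the second (right). Lrrtm3 has the lowest complete coding share in both panels, 37.7% and 22.5%, and the processed share of Nlgn3 is 2.57% on the left and 43.6% on the right.

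The 9 genes differed little between the libraries. Differences are log2 CPM (counts scaled by library size and TMM factors) in replicate 2 minus replicate 1, with a counting SE. Nrxn2 was at -0.03 (SE 0.01) and Nrxn3 at -0.04 (0.02). Nlgn1 was at 0.08 (0.03), Nlgn2 at 0.05 (0.02) and Nlgn3 at 0.01 (0.02). Lrrtm1 was at 0.10 (0.05), Lrrtm2 at 0.07 (0.04), Lrrtm3 at -0.08 (0.05) and Lrrtm4 at 0.24 (0.05). Of the 9 genes, 0 passed 1.5-fold, against 11.0% of 18954 genes with at least 10 counts in a library and 1.45% of 5315 well-counted protein-coding genes (mean over the libraries of 1000 counts or more). The share for genes as well counted as the members is thus near 0 too, and the members' count is not set apart from it. Lrrtm4 differed most, and its absolute difference exceeded that of 89.0% of the well-counted genes, whose median was 0.08. The signs for Lrrtm3 and Nlgn3 were not stable: by log2(TPM + 0.1), Lrrtm3 was at 0.06 and Nlgn3 at -0.01.

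The cortical label was met by marker genes of excitatory neurons (median 38.55 and 49.98 TPM in replicates 1 and 2) and upper-layer neurons (40.39 and 50.86 TPM). The libraries differed, however, in markers of a neighbouring region. Of 11 striatal markers, 10 were past 1.5-fold lower in replicate 2 (median log2 difference -1.90), and their summed TPM was 650 in replicate 1 and 198 in replicate 2. The defining dopamine receptor genes Drd1 and Drd2 were at 30.8 and 13.6 TPM in replicate 1, against 8.15 and 1.87 TPM in replicate 2. All 6 upper-layer markers were higher in replicate 2 (median 0.36), as were all 6 excitatory markers (0.29), and all 8 oligodendrocyte-lineage markers were lower (-0.44). The inhibitory and deep-layer lists went both ways. Of 7 inhibitory markers (median -0.33), 2 were higher, Pvalb (0.60) and Vip (0.72), both past 1.5-fold, and of the lower ones Slc32a1 (-0.63) passed it. Of 6 deep-layer markers (median -0.61), 2 were higher, Fezf2 (0.17) and Etv1 (0.19), and 3 were past 1.5-fold lower. Thalamic markers were also present, 4 of 5 at TPM 1 or more in both libraries (median 9.57 and 7.14 TPM). They were lower in replicate 2 (median -0.49) except Ramp3 (0.61), and Gbx2 had 0.56 and 0.00 TPM. Lrrtm4, at 0.24, differed in the direction of the excitatory and upper-layer markers, and the part of tissue makeup in that difference was not tested. The 2 neurexins, at -0.03 and -0.04, and the 3 neuroligins, at 0.01 to 0.08, stayed near 0 between these libraries.

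**Figure D4:**
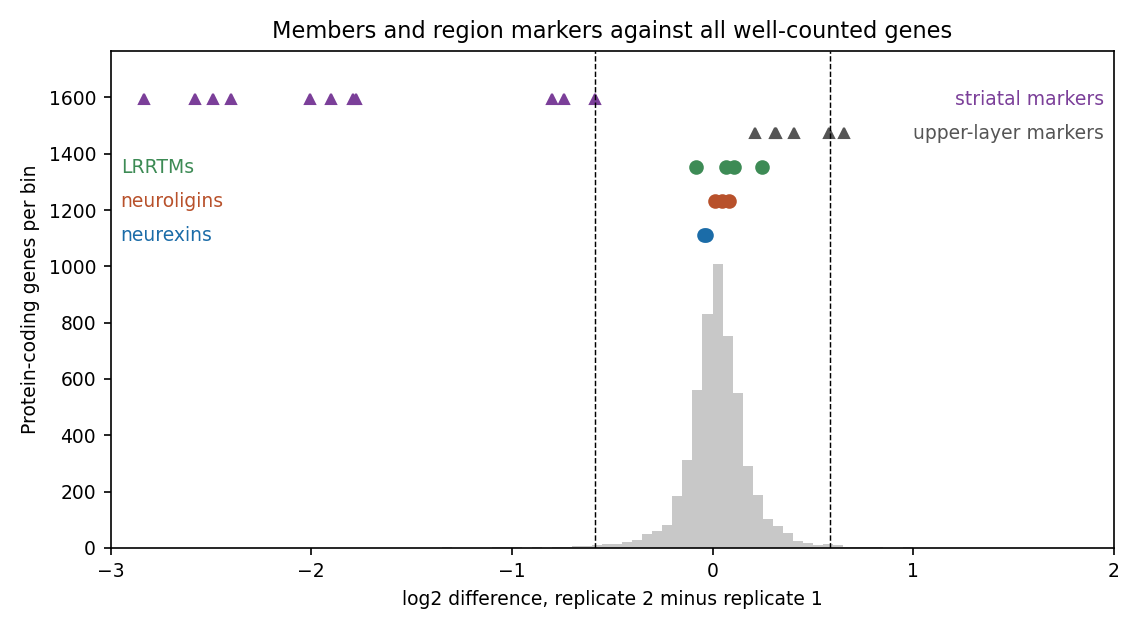
Histogram of the log2 difference between the libraries (replicate 2 minus replicate 1) over 5315 well-counted protein-coding genes, with the members as circles and striatal and upper-layer markers as triangles in rows above it; row height carries no value and dashed lines mark 1.5-fold. All 9 members lie between -0.08 and 0.24, while the striatal markers lie at -0.58 and below, down to -2.84.

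Levels of genes linked to the members ranged widely. Of 67 genes in 9 lists (extracellular partners, inhibitors, proteases, scaffolds, splicing regulators and the alpha-catenin genes that host LRRTM genes), 61 had at least TPM 1 in both libraries, as did 12921 of 21938 protein-coding genes (58.9%). Among other secreted or cell-surface neurexin partners, 18 of 22 did. The highest of that list was Clstn1, a calsyntenin, at 547 and 608 TPM in replicates 1 and 2, above every member. The latrophilin Adgrl1 had 212 and 219 TPM, the calsyntenin Clstn3 171 and 169 TPM, and the latrophilin Adgrl3 108 and 94.8 TPM. The cerebellin Cbln3 (0.14 and 0.50 TPM) and the Fam19a members Fam19a3 (0.02 and 0.01) and Fam19a4 (0.29 and 0.20) were below TPM 1 in both libraries. The cerebellin receptor gene Grid1 had 24.8 and 20.4 TPM, below each neuroligin in both libraries.

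MDGA proteins, which bind neuroligins and block neurexin binding, are encoded by a pair of measured genes. Mdga2 had 29.2 and 25.6 TPM and Mdga1 17.2 and 19.2 TPM in replicates 1 and 2. Both were below each neuroligin in both libraries. Of the heparan sulphate proteoglycans and receptor phosphatases, all 11 were at TPM 1 or more in both libraries, led by the phosphatases Ptprs (295 and 293 TPM) and Ptprd (142 and 178 TPM), the syndecan Sdc3 (121 and 112 TPM) and the phosphatase Ptprf (70.7 and 79.4 TPM). Of the listed proteases, 4 of 5 were at TPM 1 or more. These were Bace1 (52.4 and 49.3 TPM), Adam10 (34.5 and 37.9 TPM), Psen2 (9.76 and 8.26 TPM) and Adam17 (7.5 and 8.13 TPM). Mmp9 had 0.91 and 0.62 TPM. Adam10, known to shed neuroligin 1, lay below Nlgn1 in both libraries.

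The scaffolds linked to the intracellular ends of the members were all detected. All 8 presynaptic genes were at TPM 1 or more, led by the Mint gene Apba2 at 113 and 115 TPM in replicates 1 and 2, Lin7b, whose protein joins Mint and CASK in 1 complex, at 86.6 and 98.4 TPM, Apba1, also a Mint, at 75.3 and 84.3 TPM, and the membrane-associated scaffold gene Mpp2 at 72.3 and 69.4 TPM. All 12 postsynaptic genes were as well, led by Dlg4, which encodes PSD-95, at 423 and 489 TPM, Shank1 at 196 and 245 TPM, Dlg2 at 178 and 196 TPM and Dlgap1 at 135 and 144 TPM. Dlg4 exceeded every neuroligin and LRRTM. Of the KHDRBS proteins, which are known to promote skipping of the splice site 4 exon, Khdrbs3 had 96.1 and 126 TPM, Khdrbs1 40.9 and 40.5 TPM, and Khdrbs2 4.96 and 5.98 TPM. Khdrbs3 was the highest of the 3 in both libraries.

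**Figure D5:**
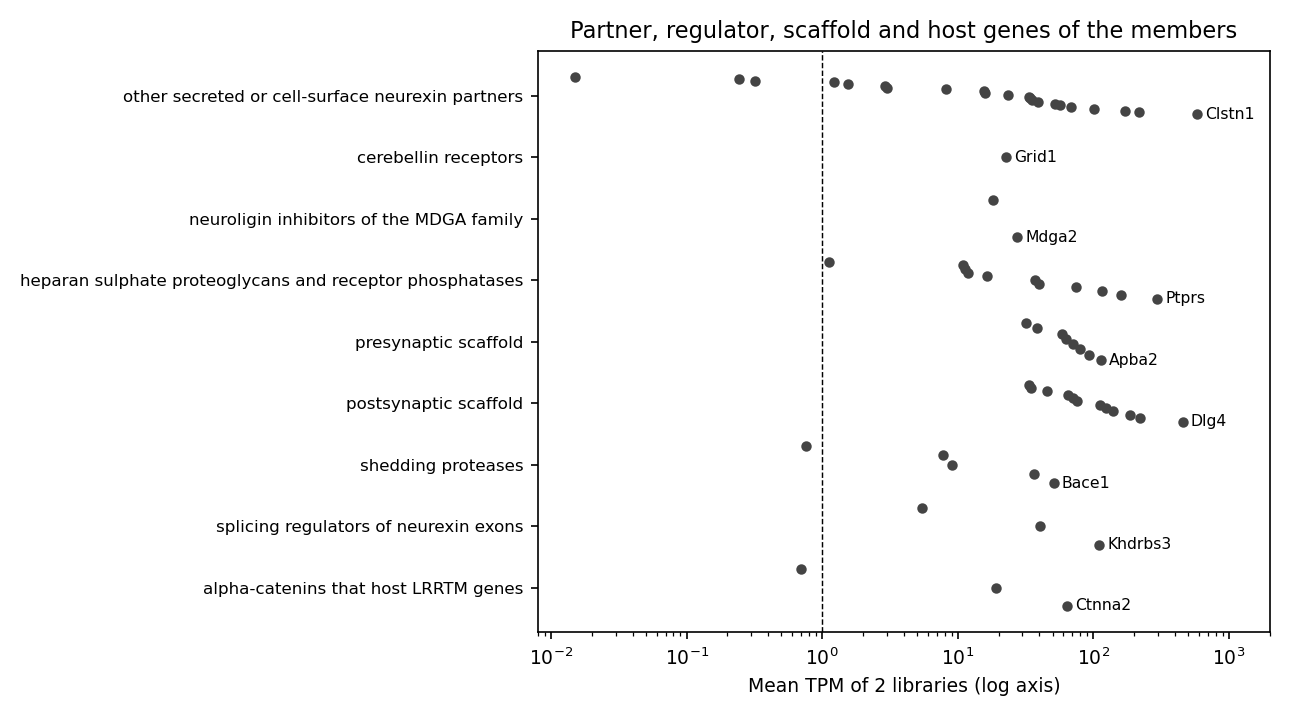
Mean TPM of 2 libraries (log axis) of 67 partner, regulator, scaffold and host genes in 9 lists, 1 point a gene, with the highest of each list named and a dashed line at TPM 1. Of these, 61 lie at TPM 1 or more in both libraries, and Clstn1 and Dlg4 lie furthest right.

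Between the libraries, 4 of 66 measured genes of these lists passed 1.5-fold, against the 11.0% of all genes given above. Of the 46 that were well counted (a mean of 1000 counts or more), 0 passed it, against 1.45% of all well-counted protein-coding genes. Cbln3 was higher in replicate 2 by a log2 difference of 1.33 (counting SE 0.46) and Ctnna3, the alpha-catenin host of Lrrtm3, by 0.91 (0.32). C1ql2, a secreted ligand of neurexin 3, was at 1.63 and 0.80 TPM in replicates 1 and 2, a difference of -0.98 (0.32), and Nxph4, a neurexophilin, was at 3.78 and 2.00 TPM, a difference of -0.90 (0.23). All 4 were low genes with wide counting errors. The presynaptic scaffold was higher in replicate 2 for 7 of 8 genes (median 0.14) and the postsynaptic scaffold for 11 of 12 (0.13), with 0 past 1.5-fold in either list, in the same direction as the excitatory markers. Of the 5315 well-counted genes, 58.6% were higher in replicate 2, with a median of 0.02 and a median absolute difference of 0.08. The part of tissue makeup in these differences was not tested.

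All but 1 of the 4 LRRTM genes lie inside alpha-catenin genes, on the opposite strand. Lrrtm1 lies in Ctnna2, which had 63.5 and 63.7 TPM in replicates 1 and 2, Lrrtm2 in Ctnna1, at 19.1 and 19.5 TPM, and Lrrtm3 in Ctnna3, at 0.49 and 0.90 TPM. Of the 3 hosts, Ctnna3 was below TPM 1 in both libraries. Host and guest exons share 0 bases for Lrrtm1 and Lrrtm3, and 95 for Lrrtm2. An antisense gene overlaps Nlgn1 by 1229 exon bases, A830092H15Rik, at 3.98 and 3.07 TPM, and another overlaps Nrxn2 by 207, Gm14964, at 1.93 and 1.44 TPM. Both were low beside their partners. Other opposite-strand genes share exon bases with members and were nearly absent. Gm4409 shares 1543 with Lrrtm4 and had 0.03 and 0.00 TPM. Slc22a12 shares 682 with Nrxn2 and had 0.10 and 0.09 TPM, and Gm37980 shares 439 with Nrxn3 and had 0.00 TPM in both libraries. Since the use of strand in counting is not given in the sources used here, reads in shared bases cannot be told apart between the strands.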

How the data were processed

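Total RNA was measured in 2 libraries, which form 1 group. Per the file headers and deposited description files, reads aligned to the mm10 transcriptome (GENCODE M21 annotation) gave the gene table and the first transcript table, and the reads themselves gave the second transcript table. The deposited expected counts are estimated reads without normalization. The deposited TPM values sum over every entry of a table, among them 97 spike-in entries. The deposited percent of each gene in each transcript and the deposited interval bounds (treated as scores, since the files do not state their level) stand beside them. The sources used here do not give the aligner, the quantifiers, their versions or the strand setting. CAST alleles differ from the mm10 reference, and how that affected assignment was not analysed here. Near-identical transcripts were divided by estimation, so levels of single transcripts are uncertain.

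Genes were matched by versioned identifier. Spike-ins and unannotated entries took 0.454% and 0.433% of expected counts and were left out of library sizes. Transcripts were classed by GENCODE biotype and by whether the reading frame is annotated as complete. Ratios used log2(TPM + 0.1), and a direction was given only where both libraries shared it and the mean exceeded the SD. Library differences used rounded expected counts in edgeR 4.0.16 (R 4.3.3; TMM factors, prior count 2, at least 10 counts in at least 1 library), tested on simulated data, with DESeq2 1.42.0 size factors as an alternative. Counting SEs cover counting error only. Python 3.11.15, pandas 2.3.3, numpy 2.4.6 and matplotlib 3.10.9 were used. The text names all 9 members, the 3 highest transcripts of each and any over 20% of its gene, and of each partner list the 4 highest genes, those below TPM 1 in both libraries and those past 1.5-fold; other transcripts named were chosen after their values were seen. Members and lists were chosen with earlier results of these data known. Some genes of these lists and 1 sequence are not reported here. Alternatives tried were the second table, other pseudocounts, filters, length limits and scalings, and leaving out each library.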

Additional observations from a re-analysis of the deposited data

How the results depend on the processing

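No paired analysis was possible because both libraries form 1 group. Leaving out replicate 1 or replicate 2 in turn left each of 42 results labelled as unchanged. For a mean of 2 libraries this is fixed, since each library always lies within 1 SD of the mean, so it says nothing about stability. The number of linked genes at TPM 1 or more, which has no SD, was 61 without replicate 1 and 62 without replicate 2, against 61. Levels moved by more than the SD with the table used. In the second table Nrxn2 had 599 TPM, Nrxn3 168, Nlgn1 71.4, Nlgn2 187, Nlgn3 207, Lrrtm1 58.5, Lrrtm2 32.8, Lrrtm3 82.2 and Lrrtm4 47.1 TPM, where protein-coding genes had a median ratio to the gene table of 1.56 and 1.54. With TPM rescaled to protein-coding genes, which held 46.4% and 46.9% of all TPM, the same genes in that order had 706, 207, 101, 271, 215, 86.4, 49.8, 73.4 and 68.5 TPM.

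The log2 ratio of Nrxn2 over Nrxn3 was 1.83 in the second table, 1.18 from expected counts not divided by length and 2.03 with complete coding transcripts. In the same order of settings, Nlgn2 over Nlgn1 was 1.39, 1.504 and 1.59 (1.41 with a pseudocount of 1), Nlgn3 over Nlgn1 was 1.53, 1.29 and 0.54, and Nlgn2 over Nlgn3 was -0.15, 0.21 and 1.05. Lrrtm3 over Lrrtm2 was 1.32, -0.42 and -0.71 (0.54 with a pseudocount of 1), and Lrrtm3 over Lrrtm4 was 0.81, -0.12 and -1.11. Lrrtm1 over Lrrtm3 was -0.49 in the second table and 1.497 with complete coding transcripts. From expected counts, Lrrtm1 over Lrrtm2 was -0.15, Lrrtm1 over Lrrtm4 was 0.15 and Lrrtm4 over Lrrtm2 was -0.30. The signs that turned with expected counts follow from dropping the division by length; for the others the cause was not tested.

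The Nrxn2 alpha share, 41.0% by the 4500-base limit, was 45.9% in the second table, 18.3% with a 6000-base limit, 31.0% with all biotypes, 48.0% by annotated start, 44.1% by start among complete coding transcripts and 50.4% for these in the second table. The Nrxn3 share, 67.1%, was 54.2% with all biotypes and moved by less than its SD under the others. Genes past 1.5-fold between the libraries numbered 6577 of 28379 without a filter and 446 of 12866 at 100 counts or more, against 2076 of 18954. The complete coding alternatives and the splice-segment shares were chosen after seeing the data. A difference between the libraries needs both, so none was left out there.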
